A study of Sus scrofa with 18 samples.

Results

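Small nuclear RNA (snRNA) genes were examined in RNA that circulates in pig serum before cardiogenic shock, in shock and on mechanical support. The count table held 31908 genes, of which 1104 were typed snRNA. The 200 snRNA genes with the largest count summed over 17 libraries were selected. They held 92738 of 94789 snRNA reads, or 97.8%. The counts themselves chose these genes, so their high totals are a description and not a finding. Rank 1 had 26591 reads and rank 2 had 15671 reads. At the lower end, the last 2 members, the U6 genes ENSSSCG00000028361 and ENSSSCG00000033632, had 18 reads each. The next genes, ENSSSCG00000033743 (U6) and ENSSSCG00000034016 (U1), also had 18 reads and stayed outside. In all, 5 genes were tied at that total, 2 of them were members, and the tie was broken by Ensembl identifier.

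The spliceosome removes introns from pre-mRNA and is built around snRNAs bound by proteins. U1 pairs with the 5′ splice site and U2 with the branch point, while U5 holds the exons and U4 delivers U6, which forms part of the catalytic centre. U12 takes the place of U2 in the minor spliceosome, and U7 acts in the 3′ end formation of histone mRNA. RNA polymerase III transcribes U6, whereas RNA polymerase II transcribes U1, U2, U4, U5, U7 and U12. Mammalian genomes carry many copies and pseudogenes of these genes, and mature snRNAs normally have no poly(A) tail.

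Serum came from 6 female Danish Landrace pigs aged 5 months. Every pig was sampled at Baseline, after CS was induced by microspheres injected into the left coronary system (CS), and while an Impella CP pump, a percutaneous ventricular assist device, supported the circulation in continued shock (pVAD). The 3 time points of a replicate number came from the same animal. pVAD support always followed CS, so support and time since shock cannot be told apart. The shallow library of CS replicate 6 was set aside, which left 6 Baseline, 5 CS and 6 pVAD libraries. These held between 18229243 and 71488943 counts each. Levels are counts scaled to a common library size (CPM) after TMM, which corrects library totals for composition, and plain CPM leaves this correction out. The members summed to between 46.7 and 544 plain CPM. The TMM factors were between 0.307 (CS 4) and 1.55 (pVAD 4), and pVAD 6 had 0.454, so CPM stood well above plain CPM in these libraries. Neither was corrected for gene length, so they compare libraries and not genes.

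By symbol or description, 124 of the 200 members were U6 genes, 29 were U1, 24 were U2, 7 were U5, 4 were U4 and 1 was U12. Another 11 carried neither a symbol nor a class in the table. The 4 annotated U7 genes had no read in any of the 17 libraries. Reads were divided very differently from genes. U1 took 36246 reads (39.1%), the unnamed genes 28186 (30.4%), U2 16275 (17.5%), U6 7837 (8.45%), U5 2883 (3.11%), U4 1278 (1.38%) and U12 33. U6 thus supplied most of the genes and few of the reads. The members of the U6 class had a median of 31 reads per gene, against 76 for U1 and 49.5 for U2.

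Of all member reads, 62.4% lay on 3 genes. They were the unnamed ENSSSCG00000024742 with 26591 reads and the U1 genes ENSSSCG00000037026 and ENSSSCG00000039278 with 15671 and 15562 reads. At the other end, 154 members had fewer than 100 reads over all 17 libraries. Reads were found in all 17 libraries for only 19 members, and 121 were read in fewer than 9 libraries. In 43 members over 50% of the reads came from a single library. The dark field of the heat map is made of these sparse genes, most of them U6.

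**Figure D1:**
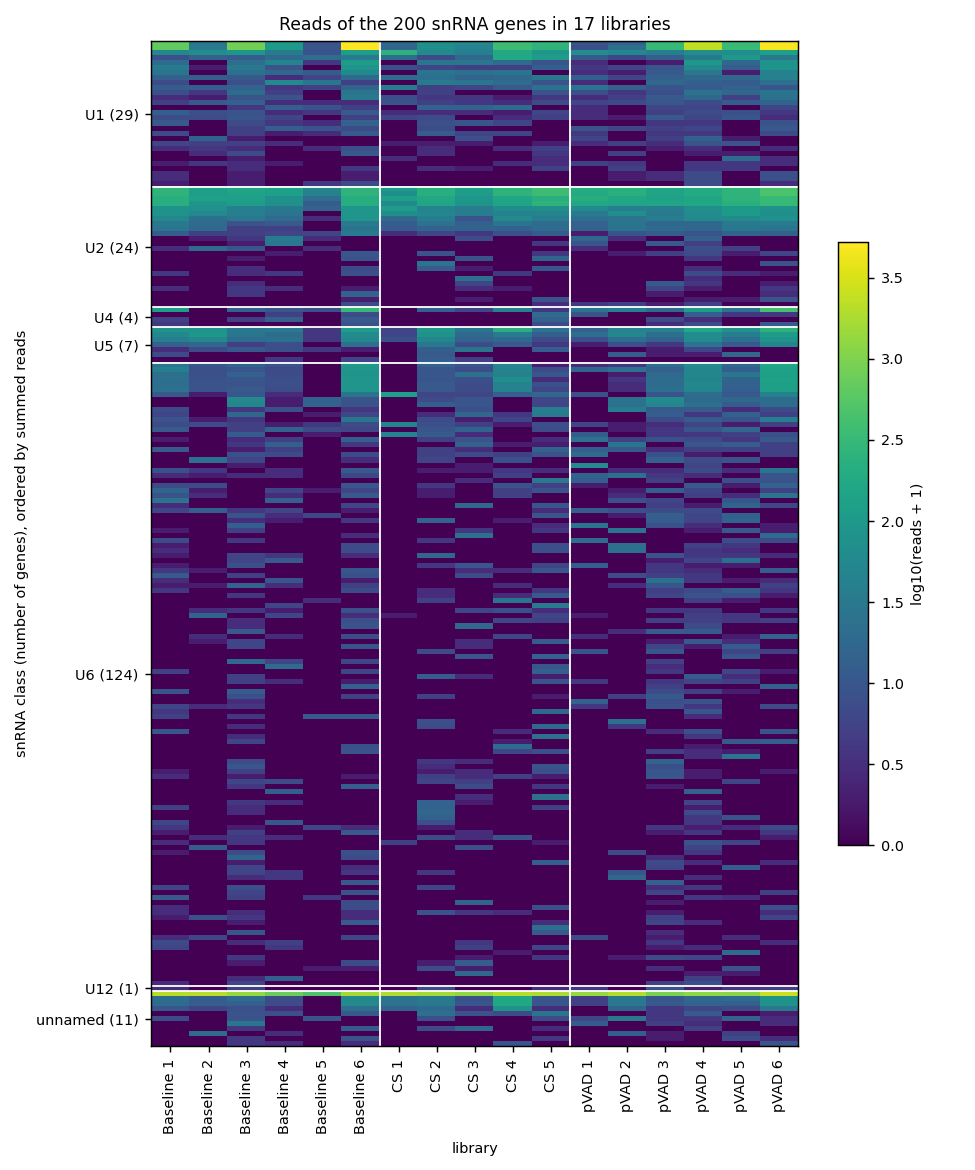
Reads of the 200 snRNA genes (1 line per gene, grouped by class and ordered by summed reads) in the 17 libraries (columns), as log10(reads + 1), with white lines between classes and time points. A few U1, U2, U5 and unnamed genes are read throughout, whereas most of the U6 genes have reads in scattered libraries, and the brightest U1 cells belong to Baseline 6 and pVAD 6.

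Several members carried counts so close that they cannot be taken as separate measurements. The U1 genes ENSSSCG00000037026 and ENSSSCG00000039278 had 5275 and 5220 reads in Baseline 6, 312 and 312 in pVAD 3, and 9 and 7 in pVAD 1. Summed over libraries, their absolute differences came to 1.01% of the larger counts. This sum weighs the libraries with most reads, and in a single library with at least 20 reads they differed by up to 39.1%. The U2 genes ENSSSCG00000036600 and ENSSSCG00000035569, with 3600 and 3476 reads in total, differed by 5.07% in sum and by up to 28.6% in such a library. The unnamed ENSSSCG00000021926 and ENSSSCG00000036522 had 512 and 497 reads and differed by 4.46%, with exactly 168 reads each in CS 4. The U6 genes ENSSSCG00000035413 and ENSSSCG00000031071 (413 and 412 reads) differed by 3.57%. The U1 genes ENSSSCG00000037544 and ENSSSCG00000037680 had the same count in every library, 20 reads each in total.

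With a limit of 10% on the summed difference, 6 pairs were joined and 194 separate items remained. At 20%, 11 groups of 26 members were found, and the largest held 6 U6 genes (ENSSSCG00000034999, ENSSSCG00000031363, ENSSSCG00000028716, ENSSSCG00000038363, ENSSSCG00000035413 and ENSSSCG00000031071) with 412 to 489 reads each. In Baseline 6 these genes had 84 to 107 reads and in pVAD 6 128 to 155, whereas CS 1 and Baseline 5 had no read of any of them. They parted in other libraries. ENSSSCG00000031363 had 24 reads in pVAD 2 where the others had 1 to 3, and ENSSSCG00000028716 had 23 in CS 3 where the others had 6 to 8. Another rule asked for counts within 5% in every library with at least 20 reads and passed over the rest. It joined 4 groups of 10 members, each of them on the evidence of 1 library only. Summed over libraries, the genes of these groups differed by 15.9% to 74.7%. It joined none of the pairs named before. How the counting treated reads that map to several copies is not given in the sources used here, and its part in these equal counts was not tested.

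**Figure D2:**
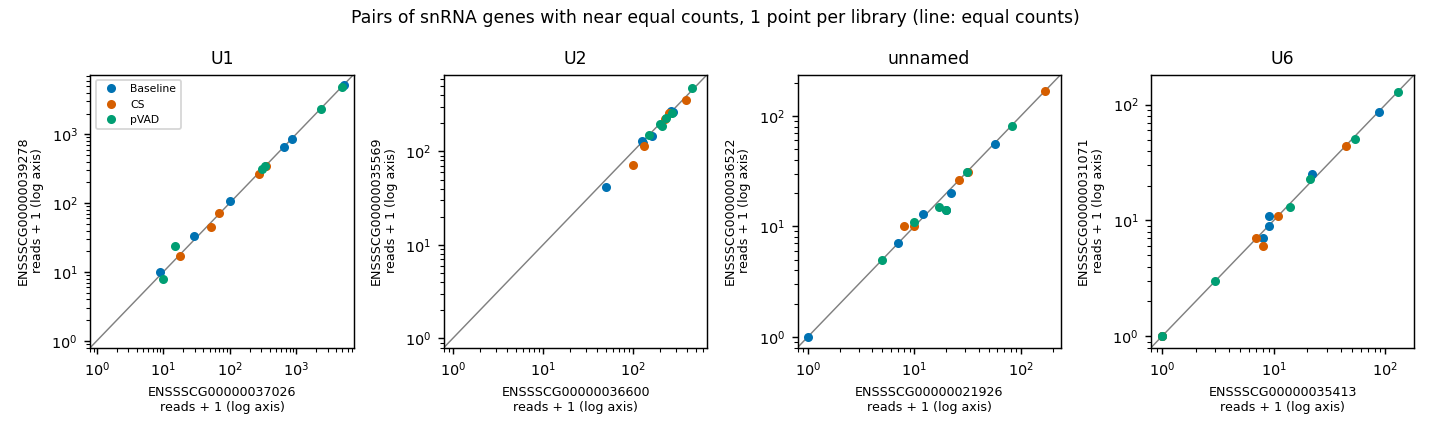
Reads + 1 (log axes) of 4 pairs of snRNA genes, 1 point per library coloured by time point, with the grey line at equal counts. Points of the U1, U2, unnamed and U6 pairs lie along the line over the whole range of counts.

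The most abundant member, the unnamed ENSSSCG00000024742, was read at every time point. Its level was 16.8 CPM at the lowest, 42.8 at the median and 59.4 at the highest in Baseline libraries. In CS the libraries had 46.2, 38.4, 30.3, 93.3 and 33.3 CPM (replicates 1 to 5), and in pVAD the lowest, median and highest values were 17.8, 25.4 and 131 CPM. By plain CPM the unnamed genes together had 34.7 in CS 4, against 61.2 in CS 2. For ENSSSCG00000024742 the time points overlapped, and by CPM its highest libraries were pVAD 6 and CS 4. The low TMM factors of these libraries (0.454 and 0.307) raise their CPM. The fitted log2 change was 0.24 ± 0.45 (SE) in CS vs. Baseline (edgeR, unadjusted p = 0.593) and −0.14 ± 0.45 in pVAD vs. CS (edgeR, unadjusted p = 0.76). When pigs were blocked the latter became −0.76 ± 0.32 (edgeR, unadjusted p = 0.0245), and without both libraries of replicate 6 it became −0.87 ± 0.33 (edgeR, unadjusted p = 0.0142). Other refits turned its sign. It was 0.24 without CS 4 (edgeR, unadjusted p = 0.608), 0.02 without pVAD 3 and 0.01 without pVAD 4. Within pigs the gene was lower on pVAD than in CS in 4 of 5 animals by CPM and in 3 of 5 by plain CPM.

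The 24 U2 genes spanned 9.38-fold from the lowest to the highest library, 4.75-fold without replicate 6 and 5.76-fold by plain CPM. Their summed level in Baseline ranged from 9.79 to 45.9 CPM with a median of 16.6, and in pVAD from 14.7 to 91.9 CPM with a median of 19.0. The CS libraries had 13.7, 23.4, 13.9, 46.5 and 26.6 CPM. Time points overlapped throughout. By CPM the top value of each time point came from replicate 6, or from CS 4 in shock. By plain CPM CS 4 had only 14.3, below CS 5 (35.3) and CS 2 (34.8). For the leading U2 gene, ENSSSCG00000036600, the log2 change was 0.29 ± 0.52 in CS vs. Baseline (edgeR, unadjusted p = 0.582), 0.29 ± 0.52 in pVAD vs. CS (unadjusted p = 0.586) and 0.58 ± 0.49 in pVAD vs. Baseline (unadjusted p = 0.257). None was called, which does not show that the levels were equal.

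The U1 pair varied far more than the U2 genes. Its summed level was 33.5, 1.71, 32.3, 4.53, 1.13 and 356 CPM in Baseline replicates 1 to 6. It was 0.794, 3.33, 2.33, 32.1 and 9.85 CPM in CS replicates 1 to 5, and 0.291, 0.784, 11.9, 78.3, 14.8 and 484 CPM in pVAD replicates 1 to 6. The lowest and highest libraries thus differed by 1663-fold, and by 269-fold without replicate 6. The pigs took different paths. In the pig of replicate 1 the pair was lower at each later time point, in those of replicates 4 and 5 it was higher at each, in that of replicate 2 it was highest in CS, and in that of replicate 3 lowest in CS. CS was higher than Baseline in 3 of 5 pigs and pVAD higher than CS in 3 of 5.

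A ratio within a library does not depend on its scaling. Per 100 reads of the U2 members, the U1 pair had 1.69 reads in pVAD 1 and 775 reads in Baseline 6, with a median of 37.0. The other 27 U1 members stayed between 12.2 and 73.7 reads per 100 U2 reads, and the U6 members between 21.7 and 80.1. The spread was therefore much wider for the pair than for the rest of its own class. The other U1 genes summed to 4.59 to 19.6 CPM in Baseline, 5.00 to 22.4 in CS and 2.52 to 27.3 in pVAD. Their leading gene, ENSSSCG00000018461, had its highest levels by CPM in CS 4 (7.97 CPM), pVAD 6 (6.16) and CS 1 (5.97). The low TMM factors of CS 4 and pVAD 6 (0.307 and 0.454) raise their CPM. By plain CPM the other U1 genes summed to 6.87 in CS 4, below 8.87 in CS 2.

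U4 and U5 took few reads. Nearly all U4 reads lay on ENSSSCG00000037051 (1135 of 1278), which had no read in Baseline 2 and CS 1 and reached 10.1 CPM in Baseline 6 and 20.1 CPM in pVAD 6. In the other libraries it lay at or below 2.72 CPM, the value of Baseline 1. The U4 genes ENSSSCG00000018679 and ENSSSCG00000040116 had 55 and 52 reads in 7 libraries each. The leading U5 gene ENSSSCG00000018672 (1314 reads) spanned 0.120 CPM in CS 1 to 12.4 in pVAD 6, and CS 4 had 10.2. ENSSSCG00000019094 and ENSSSCG00000038681, with 714 and 494 reads, followed in the same class and were highest in pVAD 6 as well. The U12 gene ENSSSCG00000024153 had 33 reads in 9 libraries and at most 8 in any of them.

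**Figure D3:**
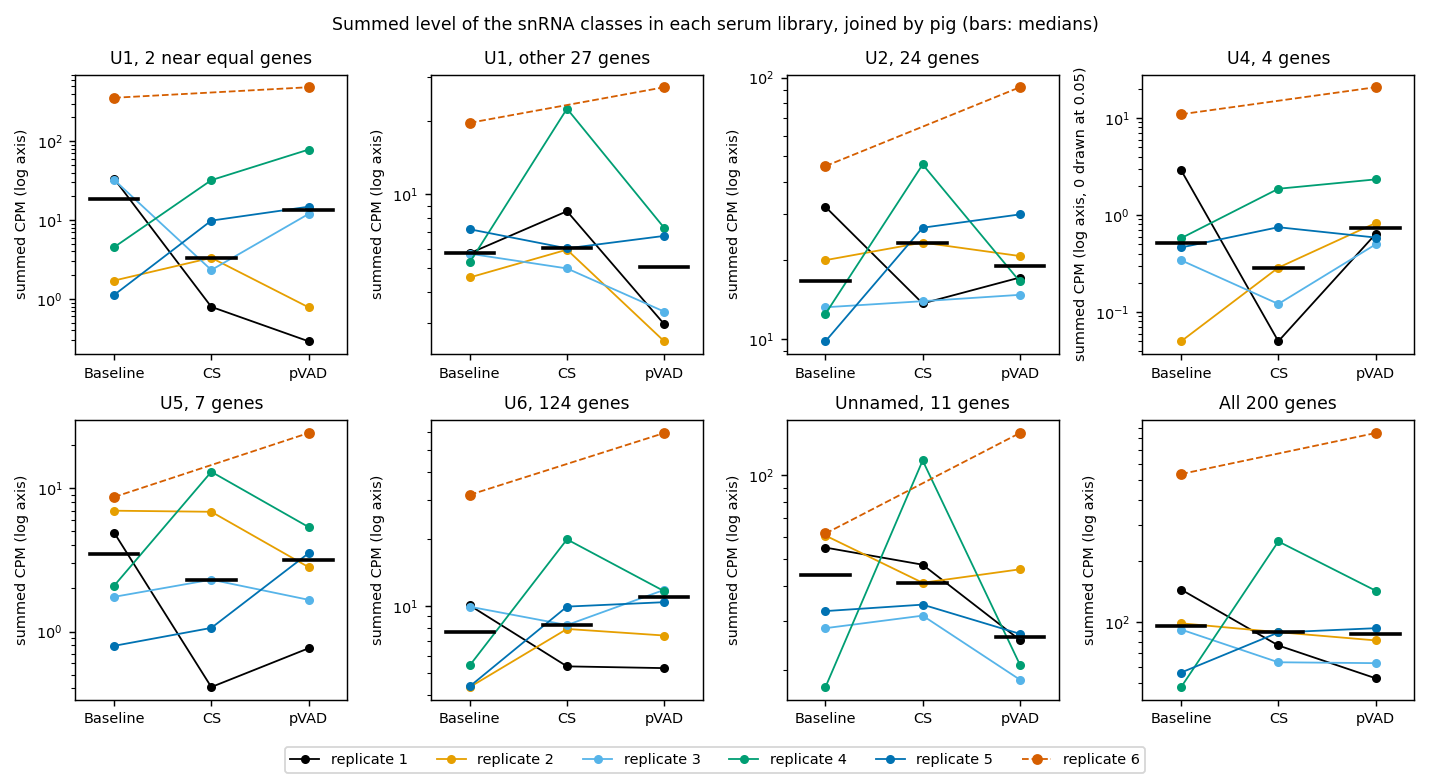
Summed CPM (log axes) of each snRNA class at Baseline, CS and pVAD, with 1 point per library, lines joining the libraries of a pig, dashed for replicate 6, which has no CS library here, and black bars at the medians. U12, a single sparse gene, is not drawn. Replicate 6 is highest at Baseline and pVAD in each panel drawn, the U1 pair spans 0.291 to 484 CPM, and the time points overlap.

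Replicate 6 stood apart in its snRNA. Baseline 6 and pVAD 6 held 10.8% of the counts of all genes but 35.6% of the member reads. They had 544 and 385 plain CPM over the members, against 46.7 to 220 (median 87.6) in the other 15 libraries. The excess was uneven. The share of reads in these libraries was 65.1% for the U1 pair, 58.3% for U4, 27.3% for U6, 26.1% for U5, 22.6% for the other U1 genes, 19.8% for U2 and 16.3% for ENSSSCG00000024742. Against the median plain CPM of the other libraries the U1 pair was 73.1-fold higher in Baseline 6 and 44.3-fold higher in pVAD 6, whereas U2 was 2.10-fold and 1.88-fold higher.

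Other RNAs moved with them in these libraries. By plain CPM, small nucleolar RNA was 4.53-fold and 4.10-fold above the median of the other libraries, small Cajal body RNA 5.52-fold and 11.6-fold, and RNA typed ribozyme 5.55-fold and 5.05-fold. In CS 4, small Cajal body RNA (258 plain CPM) and ribozyme RNA (2186) lay above both libraries of replicate 6. Protein-coding genes were at 1.07 and 0.536 times that median. The cardiomyocyte markers (5 of 6 tested) summed to 33.5 and 27.4 CPM in Baseline 6 and pVAD 6, against 52.6 to 99.5 in the others, and MYH7 alone had 19.1 and 15.3 CPM. The leukocyte markers (5 of 6) summed to 162 and 262 CPM, against a median of 122 and a highest value of 575. The platelet markers (5 of 6) had 70.4 and 193 CPM, against 38.1 to 107. The red cell (3 of 6) and hepatocyte (4 of 6) markers had 270 and 436 and 75.4 and 73.9 CPM, against medians of 324 and 62.1. All lists were thus read in the serum, and their part in the snRNA levels was not tested. In bulk serum, more cells releasing RNA and more RNA per cell cannot be told apart. CS has no library of this pig, so any difference between CS and the other time points also carries this imbalance, and each comparison is given without replicate 6 as well.

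**Figure D4:**
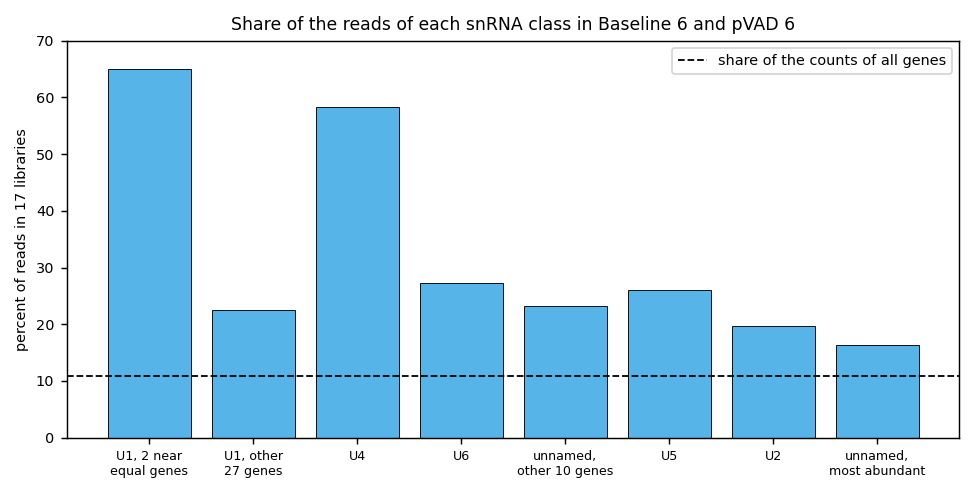
Percent of the reads of each snRNA class that came from Baseline 6 and pVAD 6 together (bars from 0), with the dashed line at the 10.8% that these libraries held of the counts of all genes. The U1 pair (65.1%) and U4 (58.3%) stand above the other classes, and of the bars drawn ENSSSCG00000024742 (16.3%) is nearest to the line. U12 (33 reads, 12.1%) is not drawn.

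A gene counted as called when its unadjusted p was below 0.05 and its fold change exceeded 1.5, in a fit across 26146 genes. For CS vs. Baseline, 10 of 200 members were called higher (5.00%) and 20 lower (10.0%), where 1.59% of all tested genes were called higher and 1.24% lower. All 30 had fewer than 100 reads, between 18 and 62. The median log2 change was −0.25 over the members and 0.00 over all genes. Among the 29 U1 genes 8 values were positive and 21 negative, with a median of −1.04, and 1 gene was called lower. U2 had a median of 0.06 (2 called higher, 2 lower), U6 −0.31 (8 higher, 15 lower) and the unnamed genes 0.78 (2 lower). Without both libraries of replicate 6, the calls were 20 higher and 16 lower and the members' median was 0.37. The class medians became −0.52 for U1, 0.56 for U2, 0.30 for U6, which turned its sign, and 1.38 for the unnamed genes.

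Of the genes called lower in CS, 19 of 20 had no read in any CS library, and of those called higher 8 of 10 had no read in any Baseline library. The U6 gene ENSSSCG00000018784 had 4, 3, 10 and 10 reads in Baseline 1, 3, 5 and 6 and none in CS, at least 8.34-fold lower when CS is set to a floor of 3 reads over the group (edgeR, unadjusted p = 0.00439, adjusted p = 1). The U2 gene ENSSSCG00000044594 had 19 reads in Baseline 2, 9 in Baseline 3, 2 in Baseline 1 and 2 in Baseline 5, and none in CS, at least 9.89-fold lower (edgeR, unadjusted p = 0.0064). Both calls remained in DESeq2, with pigs blocked and with any single library left out. Neither passed an adjusted p, and filterByExpr, a stricter count filter, removed both genes. Members were chosen by their summed reads, so genes without a CS read entered on Baseline and pVAD reads alone. The refits used members chosen in this way, so the stability of these calls does not test that choice. The U6 genes ENSSSCG00000032208 and ENSSSCG00000021394 were at least 11.7-fold and 8.34-fold lower, the former on 25 and 13 reads in Baseline 1 and 4.

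On the higher side, the U6 gene ENSSSCG00000019945 had 29 reads in CS 5, 2 in CS 3 and none at Baseline, at least 11.2-fold higher (edgeR, unadjusted p = 0.0129). The U2 gene ENSSSCG00000043827 had 23 reads in CS 3 and none in the other CS or Baseline libraries. The U6 gene ENSSSCG00000039418 had 17 reads in CS 3 and none at Baseline, and ENSSSCG00000039923 had 14 in CS 5 and 9 in CS 3. Each of these calls rests on 1 or 2 libraries, the groups overlap at 0 reads, and the adjusted p was 1.

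The most abundant U1 genes were not called in this comparison. ENSSSCG00000039278 had a log2 change of −2.92 ± 1.49 (edgeR, unadjusted p = 0.0619) and the U4 gene ENSSSCG00000037051 −2.39 ± 1.39 (edgeR, unadjusted p = 0.1). Without replicate 6 these became −0.64 ± 1.06 and −0.69 ± 1.21, and when pigs were blocked −1.19 ± 0.98 and −1.01 ± 1.10. DESeq2 called 6 members (1 higher, 5 lower), among them both U1 genes of the pair (−2.93 and −2.95 for ENSSSCG00000037026 and ENSSSCG00000039278), and the block left 7 calls (4 higher, 3 lower), 4 of them shared with the 30.

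For pVAD vs. CS, 23 members were called higher (11.5%) and 13 lower (6.50%), against 1.11% and 1.32% of all tested genes. The median log2 change of the members was 0.59, that of all genes 0.02. By class it was 0.95 for U1 (5 called higher), 0.71 for U6 (14 higher, 9 lower), 0.50 for U2 (1 higher, 2 lower), 0.88 for U5 (2 lower) and −0.23 for the unnamed genes (2 higher). Without both libraries of replicate 6, 18 were called higher and 20 lower, and the members' median was −0.07. The class medians became 0.34 for U1, 0.13 for U6, −0.15 for U2, −0.69 for U5 and −2.52 for the unnamed genes.

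Here 4 of the 46 members with at least 100 reads were called higher (8.70%), against 0.711% of the 24907 other genes with at least 100 reads. The near equal U1 pair supplied 2 of these calls, which are not separate measurements. Above 100 reads the members and the other genes were not matched for reads, so these shares are not a like comparison. The U1 genes ENSSSCG00000037026 and ENSSSCG00000039278 had log2 changes of 3.35 ± 1.53 and 3.38 ± 1.52 (edgeR, unadjusted p = 0.0389 and 0.0363, adjusted p = 0.999), and the U4 gene ENSSSCG00000037051 3.19 ± 1.43 (edgeR, unadjusted p = 0.0366). The last, ENSSSCG00000032593 (log2 2.86 ± 1.27), is a U1 gene with no read in CS 1, 3 and 4. As pVAD 6 held 242 CPM of the first U1 gene and the next pVAD library 39.3, the first 3 calls were also fitted without that pig. They fell to 1.14 ± 1.08 and 1.17 ± 1.06 for the U1 genes and 0.89 ± 1.20 for U4 without replicate 6, and to 0.61 ± 0.84, 0.70 ± 0.83 and 1.48 ± 0.93 when pigs were blocked, none of them called. They were also lost when CS 1, 2, 3 or 5 was left out, although the changes stayed at 3.05 to 3.39 for the U1 genes and 2.86 to 3.06 for U4, and DESeq2 kept all 3. Within pigs, the U4 gene was higher on pVAD than in CS in 5 of 5 animals by CPM and by plain CPM, and the U1 pair in 3 of 5 by CPM. Of the fitted changes of the 29 U1 genes, 19 were positive and 10 negative, and 18 and 11 without replicate 6. The most abundant U1 gene outside the pair went the other way. This gene, ENSSSCG00000018461, was lower on pVAD than in CS in 5 of 5 animals by CPM and in 4 of 5 by plain CPM. The sum of all U1 genes outside the pair was lower in 4 of 5 by CPM and in 3 of 5 by plain CPM.

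Among the sparse genes, 17 of the 23 called higher had no read in CS. The U1 genes ENSSSCG00000037544 and ENSSSCG00000037680, identical in all counts, had 7 reads each in pVAD 6, 6 in pVAD 4, 2 in pVAD 3, 1 in pVAD 2 and none in CS, at least 3.82-fold higher (edgeR, unadjusted p = 0.0124), and they count as 1 measurement. The U6 genes ENSSSCG00000039628 and ENSSSCG00000040971 were at least 6.68-fold and 4.77-fold higher. For ENSSSCG00000040971 Baseline 1, 2 and 3 had 5, 2 and 3 reads, CS none, and pVAD 3, 6, 1 and 4 had 8, 6, 3 and 3. On the lower side, the U5 gene ENSSSCG00000020526 had 12, 26 and 12 reads in CS 2, 3 and 5, and only 1 and 5 in pVAD 3 and 4 (log2 −3.41 ± 1.29, edgeR, unadjusted p = 0.015). Its CS libraries 1 and 4 had no read, so the groups overlap. The U5 gene ENSSSCG00000020485, with 12 and 4 reads in CS 2 and 3, was at least 7.45-fold lower. The U6 genes ENSSSCG00000020010 and ENSSSCG00000038369 had 32 of 37 and 23 of 25 reads in CS 5. Blocking left 6 calls (2 higher, 4 lower; 3 shared with the 36) and DESeq2 6 (5 higher, 1 lower; 5 shared).

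For pVAD vs. Baseline, 7 members were called higher (3.50%) and 5 lower (2.50%), against 0.444% and 0.39% of all tested genes, all with fewer than 100 reads. The median log2 change was 0.34 over the members and 0.01 over all genes, and 0.18 without replicate 6. Of the 7 higher genes 6 were U6 and 1 was U1. ENSSSCG00000019945 had no read at Baseline and 12, 8, 7 and 4 reads in pVAD 1, 6, 5 and 3, at least 7.98-fold higher (edgeR, unadjusted p = 0.0104). This call remained in DESeq2, with pigs blocked and with any single library left out, though not after adjustment or under filterByExpr. The gene became a member on CS and pVAD reads alone, and the stability of its call does not test that choice. ENSSSCG00000035540 had no read at Baseline and 9, 8, 5 and 4 reads in pVAD 3, 1, 5 and 6, at least 6.69-fold higher. In contrast, ENSSSCG00000020132 had 62 of its 69 reads in pVAD 1 and ENSSSCG00000018588 25 of 27 in pVAD 5. The 5 lower genes were 3 U6 (ENSSSCG00000018784, ENSSSCG00000024374 and ENSSSCG00000033002) and the U5 genes ENSSSCG00000020485 and ENSSSCG00000020526. The block left 2 calls and DESeq2 1.

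**Figure D5:**
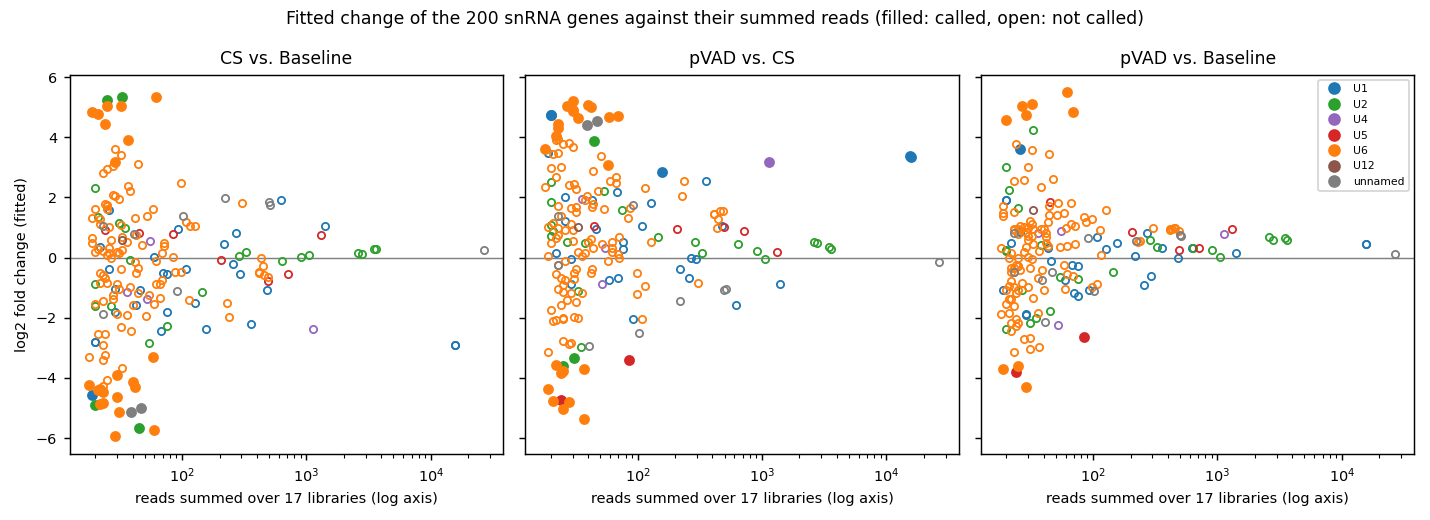
Fitted log2 fold change of each of the 200 snRNA genes (y axis) against its reads summed over 17 libraries (x axis, log scale) in the 3 comparisons, coloured by class, with called genes filled. Called genes gather below 100 reads with absolute changes of at least 2.63 log2 units, and only pVAD vs. CS has called genes of higher counts, 3 U1 and 1 U4.

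Over the 3 comparisons 58 members were called at least once, 54 of them with fewer than 100 reads. The share of all genes called depended on the reads behind them, and the members are sparse. Among the 659 other genes with 18 to 99 reads, 4.25% were called higher and 6.37% lower in CS vs. Baseline, against 6.49% and 13.0% of the 154 members in that range. In pVAD vs. CS the shares were 8.65% and 0.91%, against 12.3% and 8.44%, and in pVAD vs. Baseline 4.10% and 1.82%, against 4.55% and 3.25%. Genes of like counts were thus called higher in every comparison more often than all genes were. In pVAD vs. CS their share called lower was below that of all genes, whereas that of the members was above it. These shares were not tested against each other. In no comparison did a member have all libraries of a group above or below all libraries of the other. This was not counted for other genes. After Benjamini-Hochberg adjustment over all tested genes, 0 members passed 0.05 in edgeR (30, 36 and 12 at the unadjusted p), and 0 in DESeq2 (6, 6 and 1). In each comparison DESeq2 gave 15 members neither a p nor an adjusted p.

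In 13 members both CS vs. Baseline and pVAD vs. CS were called. Of these, 9 were lower in CS and higher on pVAD (4.50% of members, against 0.379% of all tested genes and 3.19% of other genes with 18 to 99 reads). The remaining 4 were higher in CS and lower on pVAD (2%, against 0.497% and 0.607%). Both comparisons use the same CS libraries and are not independent. Of the 200 members, 30 had no read in any CS library, 12 none at Baseline and 5 none on pVAD, with 5, 6 and 6 libraries in these groups. Other genes were not counted in this way, so these numbers cannot be read as a trait of snRNA.

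Genes that make and handle snRNA were measured as protein-coding transcripts in the same libraries. Of the 28 tested genes of snRNA transcription and 3′ end formation, INTS7, a subunit of the Integrator complex that cleaves nascent snRNA, was called lower in CS vs. Baseline (log2 −0.62 ± 0.28, edgeR, unadjusted p = 0.0382) and higher in pVAD vs. CS (0.72 ± 0.28, unadjusted p = 0.0173), with no other call. Of 19 tested genes of export, cap formation, Sm ring assembly and import, GEMIN7 of the SMN complex was called lower in pVAD vs. CS (−0.68 ± 0.32) and WDR77 of the methylosome lower in pVAD vs. Baseline (−0.78 ± 0.36). Of 17 genes of U6 end processing and recycling, PRPF4 of the U4/U6 particle was called higher in CS vs. Baseline (1.06 ± 0.39, edgeR, unadjusted p = 0.0125). No gene of these lists passed the adjusted threshold. Of all tested genes, 2.82% were called in CS vs. Baseline, 2.43% in pVAD vs. CS and 0.834% in pVAD vs. Baseline. Each list had at most 1 call per comparison, too few to set apart from these shares. The 2 calls of INTS7 use the same CS libraries and are not independent. The lists' median changes were between −0.26 and 0.05, with the lowest for the U6 list in pVAD vs. CS (4 positive, 13 negative). Their summed levels in Baseline 6 and pVAD 6 were 378 and 380 CPM for transcription, where the other libraries had 290 to 372, 200 and 207 CPM for assembly (192 to 256), and 79.4 and 92.2 CPM for the U6 list (93.9 to 144).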

How the data were processed

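The authors made libraries from 100 ng of total serum RNA with a low-input kit (NEBNext Single Cell/Low Input), sequenced them, and deposited whole-number raw counts per Ensembl gene. How well this kit captures RNA without a poly(A) tail was not tested. The read shares of the snRNA classes therefore need not be their shares in serum. Their notes name Trim Galore 0.4.4, STAR 2.4.2a and R 3.6.0, and their methods featureCounts. The genome build and the treatment of multimapping reads are not given in the sources used here.

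Members were ranked by the sum over 17 libraries and classed by symbol or description. Genes with at least 5 reads in total were tested in R 4.3.3 with edgeR 4.0.16 (TMM, quasi-likelihood, 1 fit with no term beside the time point, two-sided, Benjamini-Hochberg over all tested genes). The study used DESeq2, run here (1.42.0) as an alternative. The members and gene lists were chosen with earlier results of these data known. Named genes were the 3 most abundant of each class, the 4 smallest p values per comparison and direction, the genes next to the rank limit, and the near equal copies. The edgeR fit was tested on simulated counts for CS vs. Baseline. The genes changed there had more reads than most members, so calls of sparse genes were not tested in this way.

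Depth is the total count per library. Floors of 3 reads cover counting error only, and sequencing reads without molecular identifiers are not independent molecules. The sample sheet ties each replicate number to 1 pig, so the numbers pair the libraries. Across genes, which are not independent replicates, deviations from the time point means had a median correlation of 0.13 (−0.23 to 0.58) in the 16 library pairs from a shared pig and −0.02 in the 80 other pairs. Alternatives were DESeq2, other scalings and filters, the pig as a block, collapsed copies and each library left out. Removal of both replicate 6 libraries and the summed-difference rule for copies were chosen after seeing the data. No sequence of a member was at hand.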

Additional observations from a re-analysis of the deposited data

Results flagged for a closer look

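Of 48 sets of libraries examined (the summed levels of the classes and 9 members at each time point), 34 had a highest library far from the rest by Dixon's criterion, 25 times a library of replicate 6 and 9 times CS 4. Chance marks about 1 in 20 such groups when they are separate and normally distributed. These sets share libraries and reads, with class sums that contain the named genes and copies counted more than once, and CPM is skewed, so the number of sets cannot be read against that rate. CS 4 and pVAD 6 have the lowest TMM factors, 0.307 and 0.454, which raise their CPM.

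At Baseline, Baseline 6 stood apart with 534 CPM over all members (others 47.8 to 144), 375 for U1, 10.9 for U4 and 31.5 for U6. By gene, it had 179 and 177 CPM for the U1 genes ENSSSCG00000037026 and ENSSSCG00000039278, 10.1 for the U4 gene ENSSSCG00000037051, 3.62 for the U6 gene ENSSSCG00000034999 and 1.90 for the unnamed ENSSSCG00000021926.

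On pVAD, pVAD 6 stood apart with 849 CPM over all members (others 52.8 to 142), 511 for U1, 91.9 for U2, 20.8 for U4, 24.4 for U5, 59.6 for U6 and 142 for the unnamed genes. It had 242 and 241 CPM for the same U1 genes, 131 for ENSSSCG00000024742, 22.4 for the U2 gene ENSSSCG00000036600, 6.16 for the U1 gene ENSSSCG00000018461, 12.4 for the U5 gene ENSSSCG00000018672, 20.1 for ENSSSCG00000037051, 7.63 for ENSSSCG00000034999 and 3.99 for ENSSSCG00000021926.

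In CS, the library of replicate 4 stood apart with 249 CPM over all members (others 63.3 to 89.0), 54.4 for U1 and 113 for the unnamed genes. It had 93.3 CPM for ENSSSCG00000024742, 15.9 for ENSSSCG00000039278, 10.2 for ENSSSCG00000018672, 1.87 for ENSSSCG00000037051, 2.19 for ENSSSCG00000034999 and 7.65 for ENSSSCG00000021926. Without TMM, CS 4 had 76.4 CPM over the members, below the median of 87.6 of the 15 libraries without replicate 6.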

How the results depend on the processing

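Called members numbered 30 for shock against Baseline, 36 for support against shock and 12 for support against Baseline. They became 7, 6 and 2 with the pig as a replicate block (4, 3 and 2 of these genes shared), 6, 6 and 1 with DESeq2, 0, 4 and 0 after filterByExpr, which left 42 members to test, and 0, 0 and 0 at an adjusted p below 0.05. Leaving out 1 library gave 26 to 34, 24 to 44 and 7 to 18 calls, the 7 without pVAD replicate 1 and the 24 without CS replicate 3. Without both libraries of replicate 6, chosen after seeing the data, there were 36, 38 and 10. RLE factors, no filter, all 18 libraries, only the time points compared, removal of mitochondrial and ribosomal RNA, snRNA left out of the scaling, collapsed copies and a fold above 2 stayed within 1.5 times. Of 36 called changes named in the text, 29 were not called by DESeq2 and 30 not with the block. The 29 include changes of ENSSSCG00000018588, ENSSSCG00000020010, ENSSSCG00000020132 and ENSSSCG00000043827, to which DESeq2 gave no p.

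Changes that were not called turned their sign for ENSSSCG00000024742 (with 1 library out −0.14 to 0.38 for shock against Baseline, −0.62 to 0.27 for support against Baseline and −0.87 to 0.24 for support against shock; in pVAD vs. Baseline −0.23 with the block and −0.51 without both replicate 6 libraries), ENSSSCG00000036600 (with 1 library out −0.10 to 0.56, −0.21 to 0.85 and −0.50 to 0.67 in the same order; in pVAD vs. CS −0.46 with all 18 libraries, −0.34 with the block and −0.50 without both), and in pVAD vs. Baseline for ENSSSCG00000037026 (−0.50 with the block, −1.76 to 2.72 with 1 library out), ENSSSCG00000039278 (−0.48, and −1.74 to 2.73) and ENSSSCG00000037051 (−1.45 to 2.44), each lowest without pVAD replicate 6. The cause was not tested. The log2 ratio of mean U1 levels in CS vs. Baseline moved from −2.05 to −0.08 without Baseline replicate 6. Ranking by mean CPM shared 194 of the 200 members. The planned motif search was not run, as no sequence was at hand.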

Other observations

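The library of CS replicate 6, set aside for its depth of 2484066 counts, held 619 member reads or 249 CPM of its plain total. The paper omitted it as an outlier by sequence number, most likely for technical reasons. Only 16 members were read in it, against 35 (CS 1) to 154 (pVAD 4) in the libraries used. Its microRNA genes had 0 plain CPM, where the lowest library used had 29.6 (CS 3). Its zeros were thus not limited to snRNA, and their cause was not tested. The library had 0 reads of the U1 pair, the U4 members and every U6 member. For a gene, 0 of 2484066 allows up to 1.21 CPM, a limit for counting error only. Baseline and pVAD of the same pig had 10495 and 9821 reads of the U1 pair, so that ENSSSCG00000037026 was at least 151-fold and 91.0-fold higher there by plain CPM. U2 (206 reads, 82.9 CPM) and the unnamed members (342 reads, 138 CPM) were not lower in this library than in Baseline 6 (46.7 and 63.0 CPM) or pVAD 6 (41.7 and 64.3). With it in the fit, ENSSSCG00000037026 had a log2 change of −3.10 ± 1.12 in CS vs. Baseline (edgeR, unadjusted p = 0.00801) and 3.55 ± 1.14 in pVAD vs. CS (edgeR, unadjusted p = 0.00314).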
